A study of Homo sapiens with 42 samples.

Results

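Chromatin accessibility was compared between MCF10A cells given epidermal growth factor (EGF) and cells given phosphate-buffered saline (PBS), the vehicle, 48 h after treatment. The libraries were picked out by their labels: 4 with EGF (replicates A to D) and 3 with PBS (replicates A to C) at 48 h, which are 7 of the 42 libraries of the series. MCF10A cells are an established human line, derived from breast epithelium, that does not form tumors. All cells were grown with EGF and insulin, plated on collagen-1, and moved to medium with horse serum, hydrocortisone and cholera toxin but without EGF or insulin. EGF was then added at 10 ng/ml in fresh medium of the same kind, and PBS cells received no EGF. Every library comes from this 1 cell line, and the study's methods call the replicates biological. Neither they nor the labels say which libraries shared a culture or a day, and the p-values below measure the spread between these libraries. The assay was ATAC-seq, in which a transposase cuts and tags DNA that is not packed away, so that peaks of fragments mark promoters, enhancers and other open sites.

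EGF binds its receptor EGFR, a member of the ERBB family, and the activated receptor signals through adaptor proteins and RAS to the kinase ERK. ERK raises the activity of FOS and JUN proteins, which pair to form the transcription factor AP-1, and AP-1 sites are common in the enhancers of epithelial cells. Feedback inhibitors of the pathway, such as the DUSP phosphatases and Sprouty proteins, are themselves induced by ERK. EGF is a usual component of the medium in which this line is grown.

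Sequences at some of the sites with the highest and lowest statistic are shown first, because 2 short letter patterns were unequally common in the sites that were stronger and weaker with EGF. A site is a stretch of the genome in which peaks of the 7 libraries overlapped, and it is named by the nearest start of a protein-coding gene. Such a name gives a position and does not tie the site to the gene. Each line below gives the 101 bases of hg38, forward strand, around the summit of a distal site that was stronger with EGF. The sites were picked from the 8 with the highest statistic because they hold the AP-1 motif in this window, and CASTOR2, KLF5 and ADARB2, which are among the 8, do not. Capitals mark the AP-1 motif TGANTCA, which reads the same on both strands.
DUSP10, chr1:221612610-221612710: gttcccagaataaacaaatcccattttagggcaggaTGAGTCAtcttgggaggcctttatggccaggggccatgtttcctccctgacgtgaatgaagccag
SMIM3, chr5:150790393-150790493: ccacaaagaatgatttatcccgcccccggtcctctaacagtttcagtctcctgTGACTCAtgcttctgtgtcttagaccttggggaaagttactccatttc
ERC2, chr3:56005550-56005650: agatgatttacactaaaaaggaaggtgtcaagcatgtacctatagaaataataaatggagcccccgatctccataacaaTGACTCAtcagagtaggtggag

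Each of the next 3 lines, picked for holding the second pattern, gives a window of the same length at a site that was weaker with EGF and lay more than 1 Mb from any protein-coding start. Capitals mark the core of the CENP-B box, TTCGTTGGAANCGGGA, searched on both strands. The CENP-B box is the element that the centromere protein CENP-B binds in alpha satellite, the tandem repeat of human centromeres.
ZNF37A, chr10:40128249-40128349: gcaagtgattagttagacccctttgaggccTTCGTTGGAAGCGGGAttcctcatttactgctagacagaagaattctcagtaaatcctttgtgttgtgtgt
ZNF716, chr7:58797807-58797907: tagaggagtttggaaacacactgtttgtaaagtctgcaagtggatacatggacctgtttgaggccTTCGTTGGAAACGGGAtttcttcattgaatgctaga
ZNF33B, chr10:41125362-41125462: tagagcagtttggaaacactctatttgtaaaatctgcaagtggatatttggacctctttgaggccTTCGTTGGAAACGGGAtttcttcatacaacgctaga

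EGF libraries had more peaks than PBS libraries. On chromosomes 1 to 22 and X, EGF replicates A to D had 73426, 78887, 86016 and 78368 peaks, and PBS replicates A to C had 50176, 50031 and 15670. The groups did not overlap, and PBS replicate C stood apart from the other PBS libraries. The study left out libraries with a low share of reads in peaks before its own analysis. The sources used here do not say which, so PBS replicate C may be one of them. The geometric mean was 2.32-fold higher with EGF (exact permutation test on log10 peak number, two-sided, p = 0.0286, n = 4 and 3), and 0.0286 is the smallest p that 4 libraries against 3 can give. Without PBS replicate C the difference fell from 0.37 to 0.20 on the log10 scale. Read depth was not given. The local background was worked out from each peak's fold enrichment and p. Its 5th percentile was 0.875 to 1.19 fragments per base in EGF libraries and 0.969 to 1.08 in PBS libraries, and these ranges overlapped. Another summary of this background was at least 2.01 in EGF replicates A to C and 1.84 in EGF replicate D. In PBS replicates A to C it was 1.84, 1.86 and 1.48, lowest in the library with the fewest peaks. Whether read depth contributed to the difference in peak number was not tested. The files carry a lane number, and 3 of these numbers were each shared by 1 EGF and 1 PBS library. The EGF library had more peaks in each such pair. Whether libraries with the same lane number were sequenced together is not stated.

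The PBS libraries gave promoters a larger share of their strongest peaks. To put libraries of unequal size on one footing, each was reduced to its 15670 peaks of lowest p, which is the number in the smallest library. A promoter peak has its summit within 1000 bp of a protein-coding start. Promoter peaks made up 37.4%, 36.7%, 36.8% and 29.8% in EGF replicates A to D and 49.7%, 48.7% and 42.6% in PBS replicates A to C. The share was 11.9 percentage points lower with EGF (35.2 ± 3.62% against 47.0 ± 3.85%, SD, n = 4 and 3, exact permutation test, two-sided, p = 0.0286). In the 3 pairs with the same lane number it was lower with EGF by 11.3, 12.9 and 12.9 points, computed as PBS minus EGF. Peaks more than 1 Mb from any protein-coding start made up 0.734% to 1.24% of the strongest peaks in EGF libraries, 1.60% and 2.07% in PBS replicates A and B, and 10.3% in PBS replicate C.

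**Figure D1:**
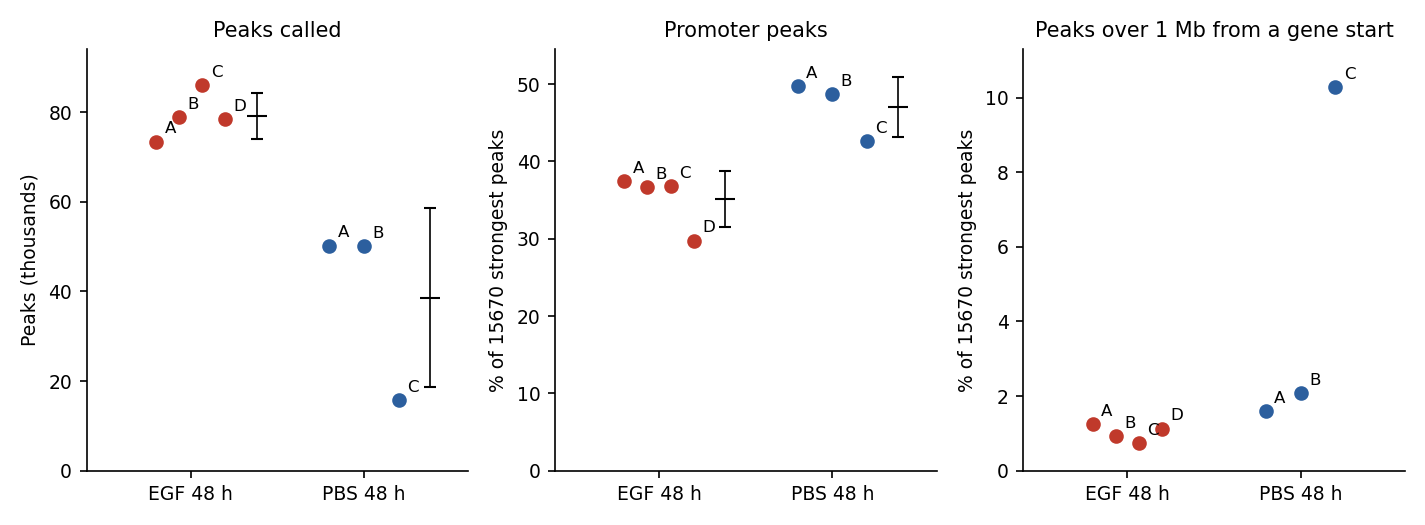
Peaks called per library, with the axis in units of 1000 (left), the promoter share of the 15670 strongest peaks (middle) and the share of these peaks more than 1 Mb from a protein-coding start (right), with 1 labelled point per library and the mean ± SD beside the points in the left and middle panels. The 4 EGF libraries lie above the 3 PBS libraries in peak number and below them in the other panels, and PBS replicate C has 15670 peaks and 10.3% far peaks.

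Most sites that were stronger with EGF were distal, while the promoter share of the weaker sites was only somewhat above that of all tested sites. Merging the peaks of the 7 libraries gave 96400 sites, and 11959 of them had a peak in every library, 48.3% of these at promoters. Strength at these common sites is the MACS2 fold enrichment at the summit, on the log2 scale after quantile normalization, and the scale therefore shows change relative to the other common sites. By limma at an adjusted p below 0.05, 646 sites were stronger with EGF (5.4% of all tested) and 428 were weaker (3.58%). Among 6183 distal sites, 587 were stronger (9.49%) and 190 weaker (3.07%). Among 5776 promoter sites, 59 were stronger (1.02%) and 238 weaker (4.12%). Promoters thus made up 9.13% of the stronger and 55.6% of the weaker sites, against 48.3% of those tested. The median difference, EGF minus PBS on the log2 scale, was 0.09 over distal sites and -0.09 over promoter sites. Without normalization these medians were 0.33 and 0.14, and that of all common sites 0.23 rather than -0.01. On that scale the promoter median was not lower with EGF. The median fold enrichment of the strongest peaks was 5.90 in PBS replicate C and 11.3 and 11.1 in PBS replicates A and B. In EGF libraries it was 11.2 to 13.6. How far PBS replicate C set the medians without normalization was not tested. The EGF and PBS values did not overlap at 608 of the 646 stronger sites and 402 of the 428 weaker sites, against 22.2% of all tested sites. Without normalization 53 sites were stronger and 22 weaker, or 70.7% stronger of those called against 60.1%. Fits without EGF replicate A, B, C or D called 420, 355, 235 or 283 stronger and 252, 220, 129 or 183 weaker sites, and the fit without PBS replicate B called 213 weaker.

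**Figure D2:**
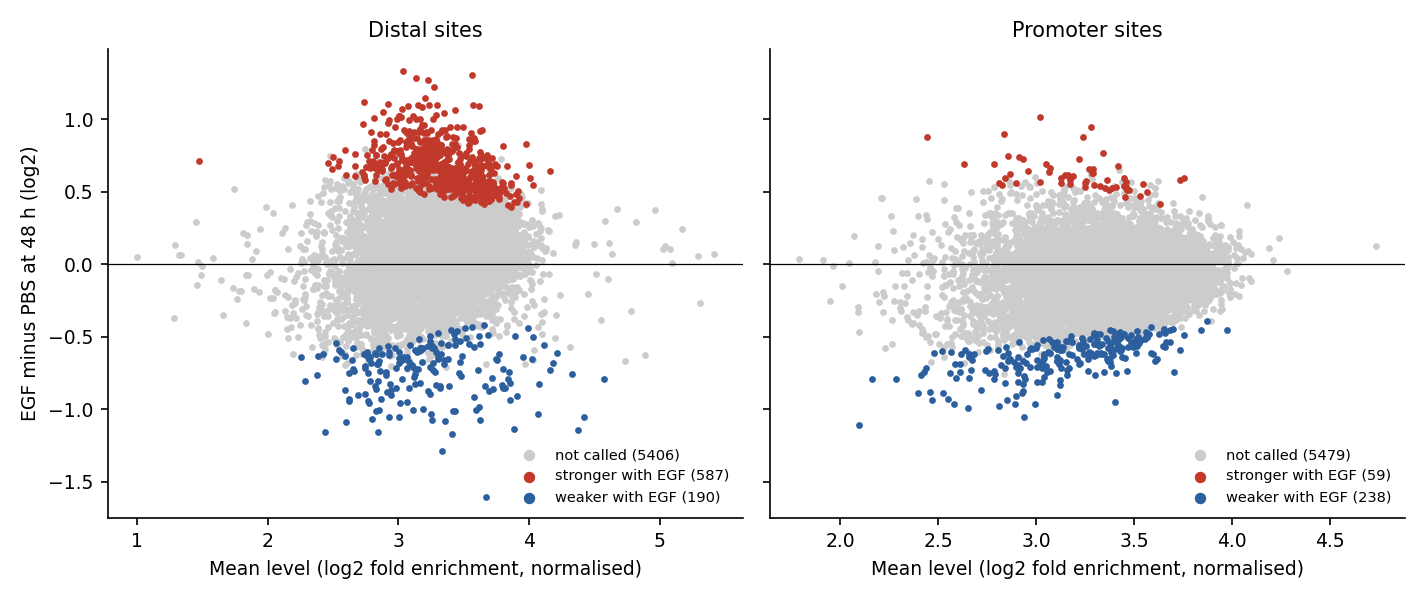
Difference between EGF and PBS at 48 h (log2) against the mean level (normalized log2 fold enrichment) for 6183 distal sites (left) and 5776 promoter sites (right), with 1 point per site. Red points are sites stronger with EGF (587 distal, 59 promoter), blue points are sites weaker with EGF (190 distal, 238 promoter), and gray points were not called.

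The 8 sites with the highest statistic were all distal, and 6 of them held an AP-1 motif within 100 bp of the summit. The site nearest DUSP10, a phosphatase that acts on the stress kinases p38 and JNK, had fold enrichments of 15.5, 17.9, 18.5 and 15.6 in EGF replicates A to D and 7.64, 7.72 and 5.40 in PBS replicates A to C. Every EGF library was above every PBS library there, and the normalized level was 2.09-fold higher with EGF (log2 difference 1.06, SE 0.14, adjusted p = 0.000673). It lies 129429 bp from the DUSP10 start, at chr1:221612233-221612930, and is intergenic. The site nearest KLF5, a transcription factor of proliferating epithelia, lies 362613 bp from its start at chr13:73421197-73421905. It had 12.6, 15.6, 17.3 and 14.2 with EGF and 6.99, 6.37 and 4.39 with PBS, a 2.21-fold difference in the normalized level, and held no AP-1 motif in the window searched. The site nearest ACTR3, a subunit of the complex that branches actin filaments, lies at chr2:113848922-113849513. It had 14.1, 14.4, 16.1 and 15.3 with EGF and 7.43, 7.73 and 4.06 with PBS. The groups were again separate.

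The largest log2 difference of the 8 was 1.30 (SE 0.15), in an intron of CASTOR2 at chr7:74993838-74994373, a member of the family of the arginine sensor CASTOR1. Its fold enrichments were 17.7, 17.3, 20.5 and 21.3 with EGF and 9.56, 7.11 and 4.90 with PBS. An intron of ERC2, which encodes a scaffold protein of synapses, held a site with 17.1, 18.2, 16.8 and 11.5 against 6.09, 6.26 and 4.57. An intron of SMIM3 held one with 18.6, 16.5, 20.2 and 18.5 against 7.34, 9.22 and 5.90. The remaining pair lay in intergenic DNA nearest ADARB2, a relative of the RNA-editing enzymes, and GJE1, of the gap junction family, and were 1.89-fold and 2.12-fold higher in the normalized level. All 8 sites had peaks in 4 of 4 CTRL libraries, which are labelled 0 h. CTRL cells had been grown with EGF like all the others, then kept in medium without it, and received none afterwards.

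**Figure D3:**
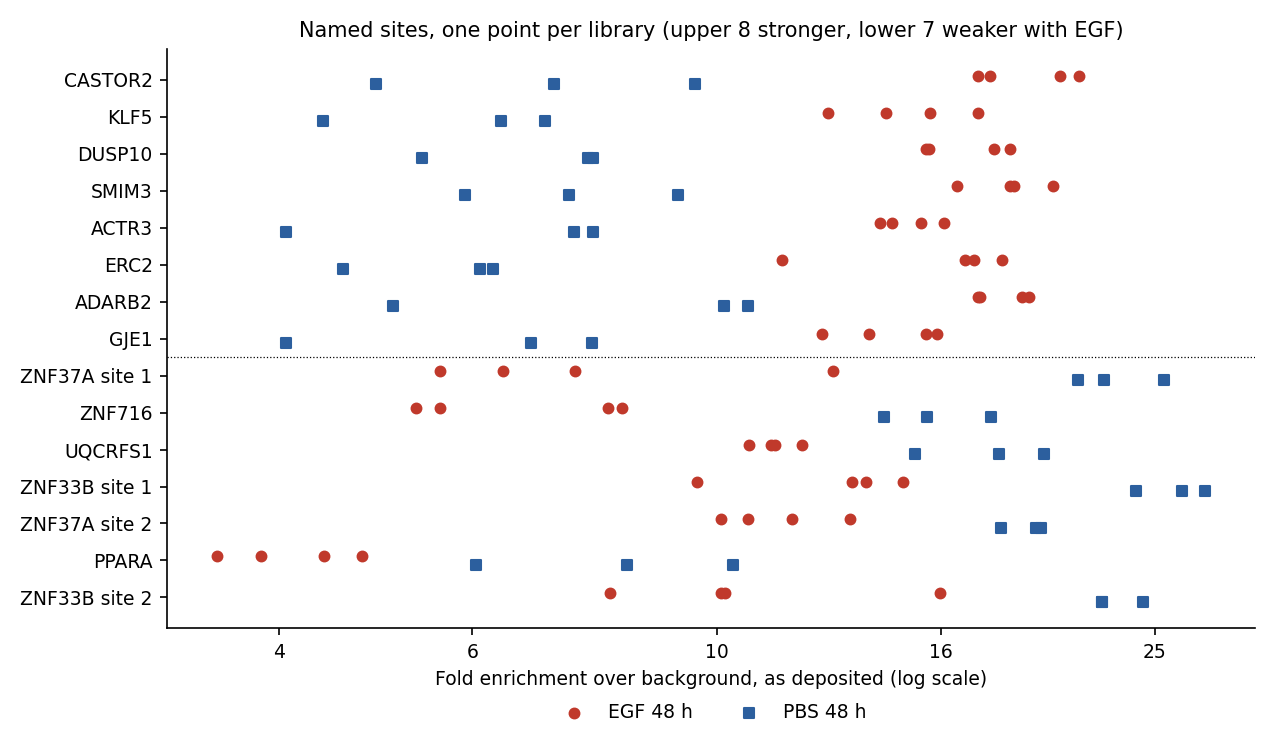
Fold enrichment as deposited (log axis) at sites with the highest (upper 8 rows) and lowest (lower 7 rows) statistic, each named by the nearest protein-coding start, with 1 red point per EGF library and 1 blue square per PBS library. Red points lie to the right of the blue squares in the upper rows and to the left in the lower rows, without overlap.

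Of the 8 sites with the lowest statistic, 6 lay more than 1 Mb from any protein-coding start, and 4 of these held the CENP-B box core. The lowest was at chr10:40128042-40128732, in intergenic DNA 2033952 bp from ZNF37A. Its fold enrichments were 21.3, 22.5 and 25.5 in PBS replicates A to C and 12.8, 5.60, 6.40 and 7.43 in EGF replicates A to D. The normalized level was lower with EGF than with PBS by 1.60 on the log2 scale (SE 0.21, adjusted p = 0.000673 in limma). EGF replicate A was the highest of the EGF libraries but stayed below every PBS library. A site at chr10:41124907-41125764, nearest ZNF33B, had 22.4, 24.4 and 22.4 with PBS and 15.96, 10.2, 8.001 and 10.1 with EGF. A site at chr7:58797636-58798211, nearest ZNF716, had 14.2, 15.5 and 17.8 with PBS and 8.21, 5.60, 5.33 and 7.96 with EGF. The zinc finger genes in these names are only the nearest annotated starts. In sequence that recurs many times in the genome, reads cannot be placed with certainty, and these values are uncertain for that reason.

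The site nearest PPARA, a nuclear receptor for fatty acids, was not among these 6. It lies in intergenic DNA 79202 bp from the PPARA start, at chr22:46069659-46072348. The site had 8.28, 10.3 and 6.04 with PBS and 4.39, 3.86, 4.76 and 3.51 with EGF, without overlap. Its normalized level was lower with EGF than with PBS by 1.09 on the log2 scale (SE 0.18).

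The CENP-B box core was in 17 of the 428 weaker sites (3.97%), in 0 of the 646 stronger sites and in 41 of the 11959 tested (0.343%). Over all 96400 merged sites it was in 892 (0.925%). Of these 892 sites, EGF replicates A to D had a peak at 287, 156, 93 and 143, and PBS replicates A to C at 354, 507 and 573. The library with the fewest peaks in all, PBS replicate C, thus had peaks at the most box sites. In the libraries of 24 h, EGF replicates A to D had a peak at 202, 419, 85 and 184 of the 892 sites. PBS replicates A to C of 24 h had one at 155, 356 and 320, so the groups overlapped at that time. Sites more than 1 Mb from a protein-coding start were 50 of the 428 weaker sites (11.7%), 8 of the 646 stronger (1.24%) and 1.81% of those tested. A fit restricted to sites within 1 Mb called 649 stronger and 413 weaker sites, and 635 and 378 of these were also called without the limit.

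The AP-1 motif was common among the sites that were stronger with EGF. Among distal sites, it was within 100 bp of the summit in 349 of 587 stronger sites (59.5%), in 36 of 190 weaker sites (18.9%) and in 2728 of 6183 tested (44.1%). Over all merged sites it was present in 34.4%. Read the other way, 12.8% of distal sites with the motif were stronger and 1.32% weaker, while 6.89% of distal sites without it were stronger and 4.46% weaker. At promoters, 5.24% of the 229 sites with the motif were stronger, against 0.847% of the 5547 without it. The share of weaker sites at promoters was 4.37% with and 4.11% without the motif.

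The same motif was counted in each library among its distal strongest peaks, which gives 1 value per library. AP-1 motifs were in 50.4%, 54.6%, 51.6% and 55.3% of these peaks in EGF replicates A to D and in 47.4%, 45.5% and 30.9% in PBS replicates A to C. The EGF mean was 11.7 percentage points higher (exact permutation test, two-sided, p = 0.0286, n = 4 and 3), and the groups did not overlap. Without PBS replicate C the difference was 6.50 points, and an exact permutation test of 4 libraries against 2 cannot go below p = 0.0667. In the pairs with the same lane number the difference was 4.84, 4.17 and 24.5 points, the last in the pair that holds PBS replicate C. When all distal peaks were used in place of the strongest, the shares were 39.9%, 41.2%, 39.7% and 41.1% with EGF and 39.8%, 39.1% and 30.9% with PBS, and the difference of 3.89 points no longer passed the test (p = 0.0571, exact permutation test).

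Among 24 motifs counted in this way, 7 had higher shares in every EGF library than in every PBS library, 5 had lower shares and 12 overlapped. None passed after Benjamini-Hochberg adjustment over the 24 (lowest adjusted p = 0.0623 from exact permutation tests). The motif of RUNX factors, TGTGGTT, was in 7.84% to 8.04% of distal strongest peaks with EGF and in 6.02%, 6.13% and 4.78% with PBS. The motif of TEAD factors, GGAATGT, the partners of YAP and TAZ, was in 6.52% to 7.02% against 4.62%, 4.72% and 5.51%. The E-box bound by ZEB and SNAI repressors, CAGGTG, averaged 18.0 ± 0.604% with EGF and 14.0 ± 1.69% with PBS (SD, n = 4 and 3). On the other side, the SP and KLF motif, GGGGCGGGG, averaged 2.02 ± 0.300% with EGF and 3.11 ± 0.627% with PBS. The motif of IRF factors, which respond to interferon, was in 2.42% and 2.60% of PBS replicates A and B and in 6.45% of PBS replicate C, against 1.93 ± 0.117% with EGF. Without peaks more than 1 Mb from a protein-coding start, the IRF shares were 2.01%, 1.85% and 2.38% with PBS and 1.75%, 1.75%, 1.90% and 2.02% with EGF, so the groups overlapped. Over all strongest peaks, promoters included, they overlapped too (p = 0.0571, exact permutation test, n = 4 and 3). Under the 1 Mb limit the other 11 motifs stayed separated in the same direction. Over all merged sites, these motifs were in 6.05% (RUNX), 5.01% (TEAD), 16.8% (ZEB E-box), 3.70% (SP and KLF) and 2.93% (IRF).

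**Figure D4:**
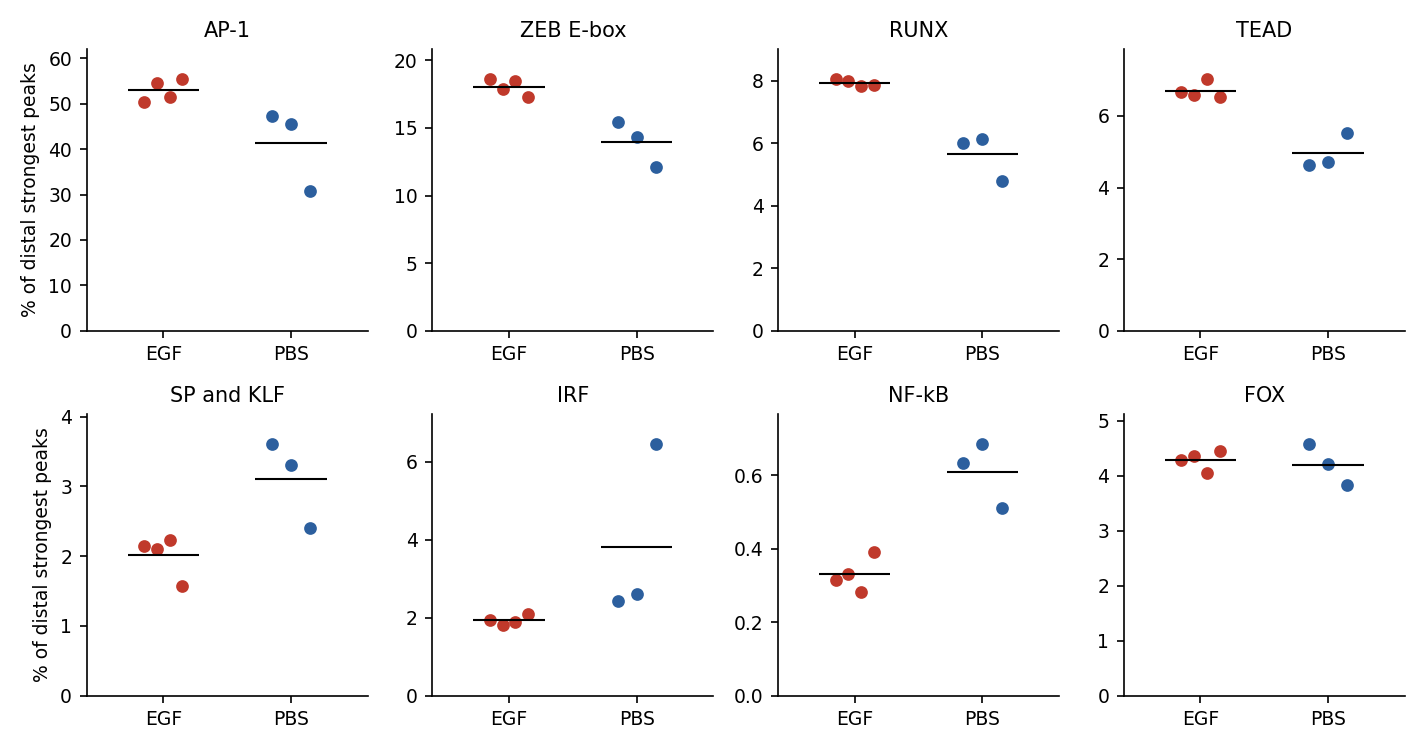
Share of the distal strongest peaks (percent) that held each of 8 motifs within 100 bp of the summit, with 1 point per library, the mean as a line, and the axis from 0 in every panel. AP-1, ZEB E-box, RUNX and TEAD shares are higher in all 4 EGF libraries than in the 3 PBS libraries, SP and KLF, IRF and NF-kB shares are lower, and FOX shares overlap. The IRF groups overlap once peaks more than 1 Mb from a protein-coding start are left out.

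Detection gave a second view. A site counted as detected in a library where one of its 15670 strongest peaks lay, and 20016 sites were detected in at least 2 of the 7 libraries. At 1220 sites all 4 EGF libraries and no PBS library detected the site (6.1% of those tested), and at 703 sites all 3 PBS libraries and no EGF library did (3.51%). These were the sites called by limma at a difference of at least 0.5. Because such sites have no spread within groups, they share 1 fitted p, and an exact test at a single site could not go below 0.0286. They are given as counts of separated sites. Most were differences of rank rather than of presence. Of the 1220 sites, 898 had a lower-ranked peak in both PBS replicates A and B, while all peaks of PBS replicate C were among its strongest by construction. Of the 703 sites, 637 had a lower-ranked peak in all 4 EGF libraries. At 133 of the 1220 sites no PBS library had a peak of any strength, and at 14 of the 703 no EGF library did. The count depended on the adjustment for peak number. With all peaks and no adjustment, 9906 sites were called more and 133 less often detected with EGF. With all peaks and, for each number of detecting libraries, the share of such sites that a library detected subtracted, 0 and 322 were. Without PBS replicate C, 1482 were detected more and 1273 less.

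The sites detected more were distal, as the stronger sites were. Promoters made up 5.0% of them, 53.9% of the sites detected less and 36.3% of all tested. Among distal sites, the AP-1 motif was in 55.7% of those detected more, 23.8% of those detected less and 51.3% of those tested. The RUNX motif was in 10.9%, 6.17% and 7.71% of these, and the TEAD motif in 11.3%, 3.09% and 6.28%. Of the 6 sites named from those detected more, 5 held an AP-1 motif. A site in an intron of XPR1, the phosphate exporter, at chr1:180827236-180827680, nearest the start of KIAA1614, had fold enrichments of 13.7, 20.0, 18.0 and 16.2 with EGF and no peak in any PBS library. A site at chr11:13097866-13098725, nearest RASSF10, had 14.98, 17.3, 17.5 and 17.2, and an intron of LYST, a regulator of lysosome size, held one with 12.7, 21.2, 19.1 and 13.4, again with no PBS peak. The other named sites of this kind were nearest ATP6V0D2, ANKRD30A and ZFAT. Of the 6 named sites detected less, 5 were nearest WSB1, ZNF716, ZNF33B or ZNF37A at 727021 bp or more. The last lay in an intron of KIAA0825 at chr5:94569383-94569537, with 31.3, 31.4 and 15.4 with PBS and no peak with EGF. This site is only 155 bp wide, and it had a peak in 1 CTRL library, 1 EGF library of 24 h and 1 PBS library of 24 h. Whether reads were placed there correctly was not tested.

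Promoters of the EGF pathway were then read gene by gene. The promoter site of a gene is the common site nearest one of its starts, within 1000 bp, and 6536 of 19609 genes had one. Over these genes 57 promoter sites were stronger with EGF (0.872%) and 272 weaker (4.16%), and the median log2 difference was -0.10. The lists of genes below are read against that background, on the normalized scale. Without normalization the median over these genes was 0.14.

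Of the 7 EGF-family ligands, HBEGF and TGFA had a promoter site in all libraries, and neither passed the test. Their log2 differences were -0.26 (SE 0.17) and -0.11 (SE 0.14). AREG, BTC and EPGN had a promoter peak in 4 of 4 EGF libraries and in 2, 2 and 1 of 3 PBS libraries, EREG in 2 EGF libraries and no PBS library, and EGF itself in 1 EGF library. Of the 4 receptors, EGFR and ERBB3 had a promoter peak in 4 of 4 EGF and 2 of 3 PBS libraries, and ERBB4 in none. Since PBS replicate C had far fewer peaks than the rest, a missing peak there is not informative. The promoter site of ERBB2, the receptor with no ligand of its own, at chr17:39687784-39688292, was stronger with EGF. Its fold enrichments were 7.41, 11.7, 16.2 and 11.996 with EGF and 8.45, 6.27 and 4.55 with PBS, which overlap before normalization (log2 difference 0.66, SE 0.19, adjusted p = 0.0407). Without EGF replicate B, C or D, or without PBS replicate B, the adjusted p in limma was 0.0943 to 0.146.

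One signal transducer and 1 feedback inhibitor had weaker promoters with EGF. Of 6 RAS-ERK transducers measured, SHC1, the adaptor that carries the receptor signal to RAS, was weaker and none was stronger, with a median difference of -0.41, or -0.18 without normalization. SHC1 had 5.99, 6.67, 4.98 and 6.51 with EGF and 8.16, 10.7 and 7.57 with PBS at chr1:154973768-154975212, and the groups did not overlap (log2 difference -0.71, SE 0.20, adjusted p = 0.0318). Leaving out any 1 of the EGF libraries, PBS replicate B or PBS replicate C raised the adjusted p in limma to between 0.0550 and 0.111. MAP2K1, the kinase that activates ERK, had a difference of -0.44 and did not pass. Of 4 feedback inhibitors measured, DUSP5, a nuclear phosphatase of ERK, was weaker with EGF. Its fold enrichments were 4.57, 4.29, 6.15 and 4.94 with EGF and 9.33, 8.97 and 6.33 with PBS at chr10:110497428-110498351, without overlap (log2 difference -0.87, SE 0.18, adjusted p = 0.00767). The call held when any single library was left out. Without normalization none of the 5 promoter calls made in the lists held (adjusted p = 0.117 for DUSP5 in limma). CBL, LRIG1 and ERRFI1, which act on the receptors themselves, had differences of -0.39, -0.28 and -0.11 and did not pass.

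None of the 7 ERK target genes measured passed. The AP-1 genes JUN, FOSL1 and FOSB had log2 differences of -0.48 (SE 0.16), -0.32 (SE 0.16) and 0.02 (SE 0.19). JUN came closest (adjusted p = 0.0682), with 8.003, 9.20, 10.1 and 8.62 with EGF and 11.3, 11.3 and 9.94 with PBS. FOS had a promoter peak in 3 of 4 EGF and 3 of 3 PBS libraries, and JUNB in 4 and 2. MYC, a driver of growth, and ETV5, an ETS factor of the pathway, had differences of 0.22 and -0.26. FOS and JUNB, without a promoter site in all 7 libraries, were not tested.

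Of 4 genes of the basal epithelium list measured, 2 were stronger with EGF and none was weaker, with a median difference of 0.21, or 0.44 without normalization. LAMA3, which encodes a chain of the epithelial laminin, was one of them. It had 14.5, 13.4, 16.9 and 12.6 with EGF and 8.81, 10.8 and 6.15 with PBS at chr18:23872491-23873219, without overlap (log2 difference 0.51, SE 0.14, adjusted p = 0.0282). The adjusted p in limma rose to between 0.0556 and 0.0975 without any 1 of the EGF libraries or PBS replicate A. KRT6A, a keratin, and ITGB4, an integrin of the hemidesmosome, had differences of -0.17 and -0.10 and did not pass.

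Genes of growth and arrest were not called at their promoters. Of 14 genes of S phase and mitosis measured, 0 passed in limma and the median difference was -0.16, with 3 higher and 11 lower with EGF. Without normalization 9 were higher and 5 lower. MCM2, a subunit of the replicative helicase, had a log2 difference of 0.58 (SE 0.19, adjusted p = 0.0591), and RRM2, a subunit of ribonucleotide reductase, had -0.53 (SE 0.17, adjusted p = 0.0571). None of 11 genes of quiescence and FOXO targets passed (median -0.07), nor of 5 apoptosis genes (median -0.23), 7 genes of sterol and fatty acid synthesis (median -0.19), 5 glucocorticoid targets (median -0.17) or 2 migration genes (median -0.02). CCNG2 and IRS2, both FOXO targets, had differences of -0.38 each. BMF, which promotes apoptosis, had -0.44, SREBF2 and FASN, of lipid synthesis, had -0.42 and -0.45, and SGK1 and PER1, targets of the glucocorticoid receptor, had -0.48 and -0.54. The luminal and squamous lists had no promoter site present in all 7 libraries.

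The labelled cell type was checked against its markers. Of 8 epithelial markers, 6 had a promoter peak in all 4 EGF libraries, and 1, ITGB4, had one in all 3 PBS libraries as well. CDH1, KRT5, KRT17 and LAMB3 had one in 2 of 3 PBS libraries, and EPCAM in 0 of 3. For KRT14 and TP63 the peak lists used here held no promoter peak in any of the 7 libraries, and whether the lists are complete at these genes could not be checked. Of 10 immune, endothelial and stromal markers, 7 had no promoter peak in any library, CD14 had one in 4 EGF and 2 PBS libraries, and COL1A1 and COL1A2 each had one in 1 EGF library. CDKN2A and CDKN2B, which are deleted in MCF10A, had none.

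The called sites were read in libraries that took no part in the calls. Over the 646 stronger sites, all of which had peaks in the CTRL libraries taken at 0 h, the median normalized level was 3.76 in CTRL, 3.75 in EGF and 3.05 in PBS libraries on the log2 scale. Over the 413 weaker sites with CTRL values it was 2.96, 2.93 and 3.60. The EGF and PBS medians are those that chose the sites, and the CTRL medians lay nearer the EGF than the PBS medians in both cases. All cells, CTRL included, had been grown with EGF before the move to medium without it. At 24 h, where 4 EGF and 3 PBS libraries separate from these were made, 493 of 600 stronger sites with values in all 7 were higher with EGF (82.2%), and 258 of 343 weaker sites were lower (75.2%), against 49.7% higher and 50.3% lower over 10828 common sites. The median difference at 24 h was 0.19 for the stronger sites and -0.17 for the weaker ones, and at 48 h 0.64 and -0.62 for the same sites, the last 2 being the values that chose them.

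Peak number also differed among the other libraries. The median level of the stronger sites minus that of the weaker sites was 0.70 to 0.79 in CTRL libraries, with 106456 to 111262 peaks. At 24 h it was 0.55 in PBS replicate A, with 102160 peaks, and 0.15 and 0.06 in PBS replicates B and C, with 43898 and 37686 peaks. In EGF libraries of 24 h it was 0.58, 0.42, 0.71 and 0.78, with 60180, 43099, 83779 and 100669 peaks. EGF replicate B and PBS replicate B of 24 h had nearly the same number of peaks and values of 0.42 and 0.15. PBS libraries of 48 h had -0.48, -0.56 and -0.64, and PBS replicates A and B of 48 h had more peaks than EGF replicate B and PBS replicates B and C of 24 h, in which the value stayed above 0. The part of peak number in the differences at 48 h was not tested, and at 48 h it cannot be told apart from the treatment, since the groups did not overlap in it.

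**Figure D5:**
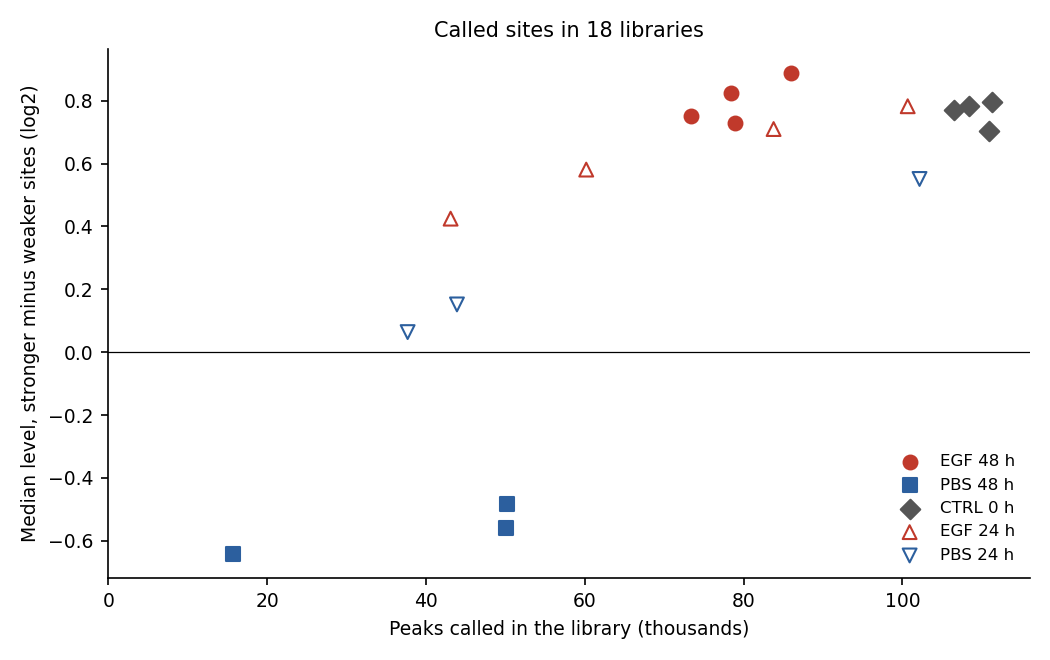
Median normalized level of the sites called stronger minus that of the sites called weaker (log2) against the number of peaks in the library (axis in units of 1000), with 1 point per library for EGF and PBS at 48 h (filled circles and squares), CTRL at 0 h (diamonds) and EGF and PBS at 24 h (open triangles up and down). The 48 h libraries chose the sites, and among the others the value runs from 0.06 in PBS replicate C of 24 h to 0.79 in a CTRL library.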

How the data were processed

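Peak lists of 7 ATAC-seq libraries were used for the comparison, and those of 4 CTRL, 4 EGF and 3 PBS libraries of 0 h and 24 h for description. Per the labels and the study's methods, the authors trimmed reads with Trimmomatic 0.36.5, aligned them to hg38 with Bowtie2 2.3.4.1, removed mitochondrial alignments and, with Picard, duplicates, and called peaks in each library with MACS2 2.1.1.20160309.5 at q 0.01 without a control. The peak files as deposited give a ratio, MACS2 fold enrichment at each summit, and -log10 p and q. Read depth is unknown. Peaks on chromosomes 1 to 22 and X were merged where they overlapped by 1 bp and annotated with GENCODE release 44, and the summit of a site is that of its peak of lowest p. Strength (log2, quantile normalized) and detection were fitted with limma 3.58.1 in R 4.3.3 with 5 residual degrees of freedom, tested on simulated data, and adjusted by Benjamini-Hochberg. Single values were compared by exact permutation. Named sites were the 8 highest and 8 lowest called by statistic, up to 6 separated sites in each direction by p and then mean level, and up to 4 genes of each list by p, besides EGFR, EGF-family, FOS and JUN genes. The members, lists and motifs were chosen with earlier results of these data known, and the CENP-B box was searched after the sites were seen. Alternatives changed normalization, filters, thresholds, overlap, windows, the libraries used and blocks. Replicate letters did not pair libraries. Some sites and genes that the rule names are not reported here.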

Additional observations from a re-analysis of the deposited data

Results flagged for a closer look

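Among 43 sets of 4 EGF values examined, 4 held a library far from the other 3, and chance flags about 1 in 20. EGF replicate D had the lowest promoter share of the strongest peaks, 29.8%, against 36.7% to 37.4% in replicates A to C, and the lowest NRF1 motif share of distal strongest peaks, 0.400%, against 0.535% to 0.561%. At the site nearest ACTR3 the normalized log2 fold enrichment was 3.89 in EGF replicate D and 3.73 to 3.76 in the others. At the site nearest ZNF33B that starts at 40934507 on chromosome 10 it was 3.00 in EGF replicate C and 3.69 to 3.79 in the others. For the promoter share and both sites, every EGF value lay on the same side of all PBS values. The NRF1 shares of the groups overlapped.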

How the results depend on the processing

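Peak number, promoter share and AP-1 share kept their direction under every alternative run. The AP-1 difference was 3.89 points (p = 0.0571, exact permutation test) with all distal peaks. With 1 library left out, 3 against 3 cannot give p below 0.1 and 4 against 2 none below 0.0667, so these values were judged by size alone. Counts of stronger and weaker sites were 1109 and 864 with the -log10 p as strength, 53 and 22 without normalization, 1855 and 1010 when sites with missing values were kept, 2359 and 1582 over the sites shared by the 6 libraries other than PBS replicate C, and 149 and 71 at an adjusted p below 0.01. With 1 library left out they were 235 to 774 stronger and 129 to 533 weaker, lowest without EGF replicate C. Without PBS replicate B 450 were stronger and 213 weaker. The median-centered fit gave 644 and 586, or 52.4% stronger of all called, against 60.1%. Requiring an overlap of 200 bp made 75.0% of the separated sites ones detected more, against 63.4%. Separated sites numbered 0 more and 322 less with class rates subtracted, 9906 and 133 with all peaks, and 3569 and 2596 in the other 6 libraries at their own smallest peak number. With 1 library left out they were 1470 to 1598 more and 811 to 1273 less, highest in the second without PBS replicate C. Same-letter libraries had deviations correlated at -0.13, 0.05 and -0.12, so the letters did not pair them, and the replicate block over the 3 shared letters gave 144 stronger and 84 weaker sites and 1473 and 811 separated ones. Other sites or libraries enter some of these fits by construction, and otherwise the cause of the change was not tested. The sites named among the stronger kept their call in 136 of 136 alternative fits and those among the weaker in 127 of 130. They were picked for the most extreme statistics in these same libraries, so this does not speak for the other called sites. The 5 promoter sites called in the lists kept their call in 54 of 85. The alternatives with a lane block, with the 1 Mb limit, with distinct peak regions and without PBS replicate C on its own sites were chosen after the data were seen.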
